A study of Mus musculus with 12 samples.

Results

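Expression of 8 genes of cholesterol synthesis was followed across 12 RNA sequencing libraries of mouse proximal ileal epithelium. The genes were Hmgcs1, Idi1, Fdps, Fdft1, Sqle, Lss, Cyp51 and Dhcr7, chosen by symbol and matched to the Ensembl identifiers of the deposited count files through GENCODE M21. They are 8 of 46078 genes in those files and 8 of the 15823 genes that passed the filter on low counts, so every member was tested. Male C57BL/6 mice received sesame oil vehicle or 3, 10 or 30 µg/kg TCDD by oral gavage, and each group has 3 libraries. All groups were gavaged 7 times at intervals of 4 days from an age of 28 days and were 56 days old at the end. All were housed alike under a 12 h light cycle and fed the same rodent diet. TCDD, the most potent of the dioxins, is a persistent ligand of the aryl hydrocarbon receptor (AhR), a transcription factor. The labels name no animal behind a library, so p-values measure the spread between these libraries.

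Cells make cholesterol from acetyl-CoA through the mevalonate pathway, which first builds isoprenoids, then joins them to squalene and finally folds squalene into the sterol rings. Genes of the pathway share a transcription factor, SREBP2, which the proteins SCAP and INSIG hold in the endoplasmic reticulum while sterols are plentiful and release when they are scarce. In the small intestine, which absorbs dietary and biliary cholesterol, synthesis is carried by crypt and villus epithelial cells, and in liver several of its genes follow the daily rhythm of feeding and the clock.

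Between 11695887 and 22180274 counts per library fell on genes, and the shallowest library was 30 µg/kg replicate 2. The AhR target Cyp1a1 had a mean of 23.1 CPM in vehicle and of 77.5, 1075 and 2982 CPM at 3, 10 and 30 µg/kg. CPM is the count relative to library size in the usual edgeR unit, with the size taken after scaling by the trimmed mean of M values (TMM). The summed level of 10 enterocyte markers was between 31400 and 48500 CPM in every library, and that of 6 pancreatic acinar markers was at most 9.3 CPM. A scraping holds several cell types, and in such bulk samples fewer cells of a type and less RNA per cell cannot be told apart.

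Because the members moved together across libraries, their promoters are shown first. RefSeq (GRCm38.p6) gave promoter entries for 5 of the 8 members, and the 250 bases before the transcription start of each entry were searched. Fdps, Fdft1 and Sqle are named only. On both strands, the core of a sterol regulatory element (CACNCCAC), to which SREBP binds, was found in 1 of the 5 members, against 5.29% of 32851 promoters. The CCAAT box, bound by NF-Y, occurred in 5 of 5 members, against 33.8% of promoters. The dioxin response element core GCGTG, bound by AhR, was found in 4 of 5, Hmgcs1 being the exception, against 28.2%. Dhcr7 counts here through 1 of its 3 entries, so that per entry CCAAT was found in 5 of 7 and GCGTG in 4 of 7, which is the count that compares with the share of promoters. A match of such short letters is a description of the window and not evidence of binding. The sequences below carry the CACNCCAC and CCAAT matches in capitals (ATTGG on the opposite strand) and are written from 5′ to 3′ along the gene. Hmgcs1 is shown for the single sterol regulatory core, at 136 bases before the start. Idi1 and Cyp51 are shown as members whose CCAAT box lies near the start of the RefSeq entry. Dhcr7, by the third of its 3 entries, is shown as the member whose level differed least between doses. The windows are chr13:119690101-119690350 (plus strand) for Hmgcs1, chr13:8885356-8885605 (plus) for Idi1, chr5:4104698-4104947 (minus) for Cyp51 and chr7:143829964-143830213 (plus) for Dhcr7. In GENCODE M21 the gene starts at 8885501 for Idi1, at 143823145 for Dhcr7 and, on the minus strand, at 4104746 for Cyp51. The CCAAT matches of Idi1 and Cyp51 and the whole Dhcr7 window thus lie inside the annotated gene.
Hmgcs1: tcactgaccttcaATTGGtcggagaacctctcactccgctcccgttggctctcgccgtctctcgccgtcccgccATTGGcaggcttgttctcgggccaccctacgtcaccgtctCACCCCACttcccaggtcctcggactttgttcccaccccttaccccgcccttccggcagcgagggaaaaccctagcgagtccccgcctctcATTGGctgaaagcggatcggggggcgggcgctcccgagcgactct
Idi1: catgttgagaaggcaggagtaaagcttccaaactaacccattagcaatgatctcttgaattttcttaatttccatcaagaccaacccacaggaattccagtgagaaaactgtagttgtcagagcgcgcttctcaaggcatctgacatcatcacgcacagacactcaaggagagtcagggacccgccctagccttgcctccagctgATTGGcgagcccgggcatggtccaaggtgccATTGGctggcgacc
Cyp51: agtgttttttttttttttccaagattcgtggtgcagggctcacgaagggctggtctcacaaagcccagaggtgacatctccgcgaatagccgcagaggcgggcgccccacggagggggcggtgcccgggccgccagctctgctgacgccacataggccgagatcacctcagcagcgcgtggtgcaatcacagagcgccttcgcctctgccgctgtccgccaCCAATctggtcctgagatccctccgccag
Dhcr7: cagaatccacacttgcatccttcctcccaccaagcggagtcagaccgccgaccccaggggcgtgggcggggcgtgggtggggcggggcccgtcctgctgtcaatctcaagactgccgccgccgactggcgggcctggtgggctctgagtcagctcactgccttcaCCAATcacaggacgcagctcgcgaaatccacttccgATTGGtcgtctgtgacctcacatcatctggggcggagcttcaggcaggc

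All 8 members were higher on average than in vehicle at each dose, 7 of them by up to 1.83-fold, but none passed the test at any dose. A gene was called when its Benjamini-Hochberg adjusted p in edgeR's quasi-likelihood test over 15823 genes was under 0.05 and it differed at least 1.5-fold from vehicle. By that rule 0 of 8 members were called at 3 µg/kg, where 0.228% of all genes tested were called, 0 of 8 at 10 µg/kg, where 0.613% were, and 0 of 8 at 30 µg/kg, where 3.97% were. At an unadjusted p under 0.05, 2, 6 and 4 members were higher at 3, 10 and 30 µg/kg, against 6.48%, 7.99% and 11.6% of all genes. The median log2 change of the members was 0.26, 0.49 and 0.42 in order of dose, against medians over all genes of 0.00, -0.01 and -0.02. Without vehicle replicate 1 the members' medians were 0.17, 0.37 and 0.29, and without 30 µg/kg replicate 1 the median at 30 µg/kg was 0.19. The estimate was above 0 for 8 of 8 members at each dose, against 50.3%, 48.6% and 47.8% of all genes. Without vehicle replicate 1, Dhcr7 was below 0 at each dose (-0.05, -0.03 and -0.04). The 3 comparisons share the vehicle libraries, so their values are not independent of each other, and the members move together, so they are not independent of each other either. By DESeq2, 2 members were called at 10 µg/kg, Hmgcs1 (adjusted p = 0.0175) and Fdps (adjusted p = 0.0407), against 1.66% of all genes tested there.

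**Figure D1:**
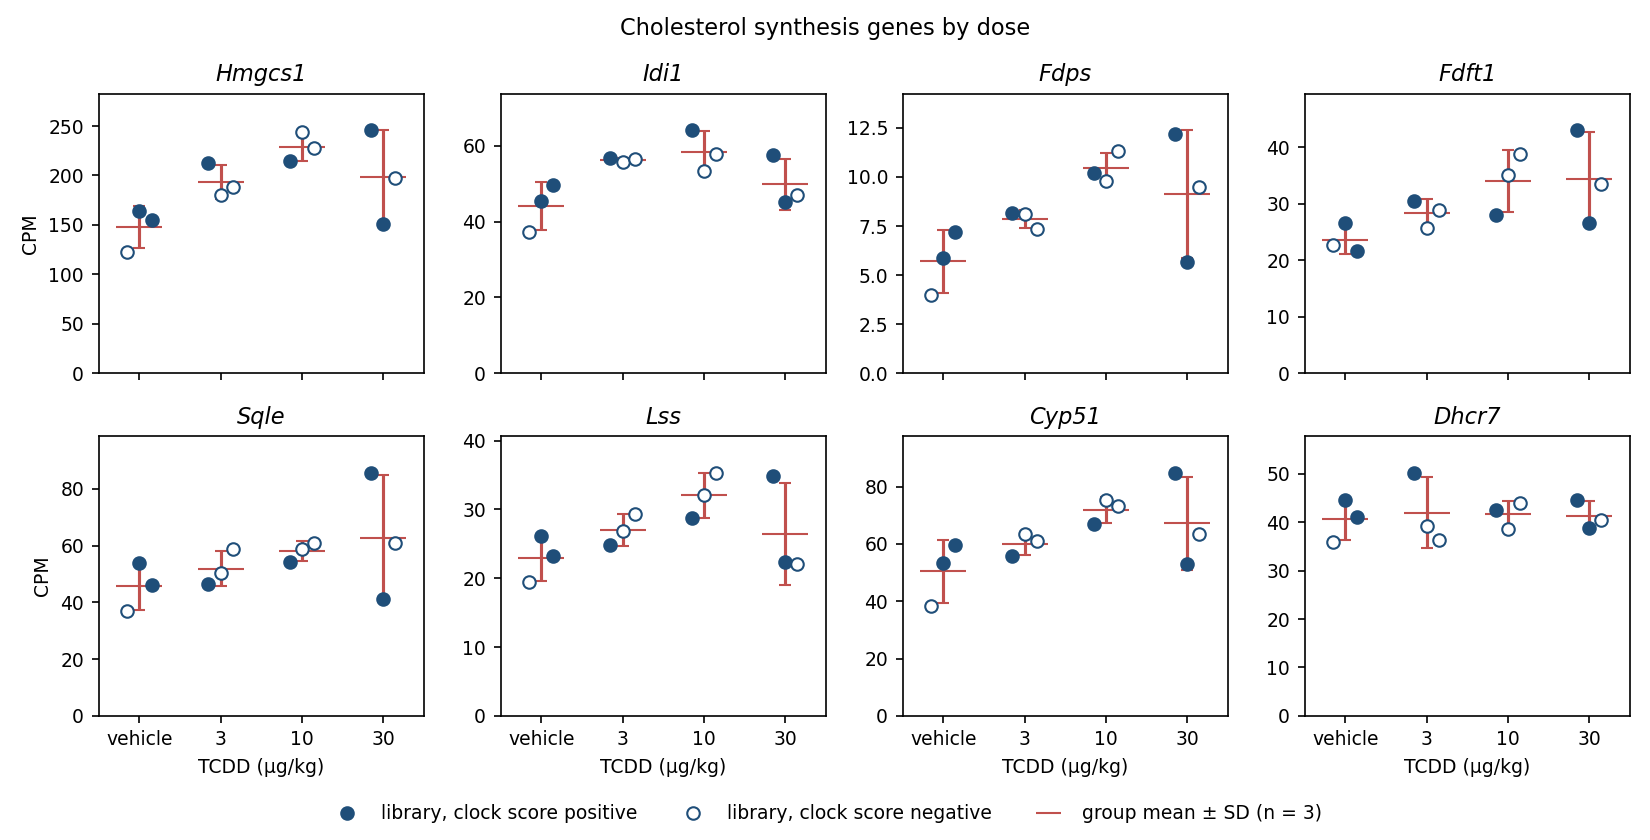
Level of each of the 8 genes (CPM, vertical axis from 0) in every library by TCDD dose (vehicle, 3, 10 and 30 µg/kg). Filled points are libraries with a positive clock score, open points those with a negative score, and bars are the group mean ± SD (n = 3). The 10 µg/kg libraries lie above every vehicle library for 7 genes. The SD is largest at 30 µg/kg for every gene but Dhcr7, though only narrowly for Idi1. The means of Dhcr7 lie between 40.6 and 42.0 CPM.

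The first member in the pathway is Hmgcs1 (ENSMUSG00000093930, chr13:119690379-119708260, plus strand), the cytosolic HMG-CoA synthase of the mevalonate pathway. Its level was 123, 164 and 155 CPM in vehicle replicates 1 to 3, 213, 180 and 188 CPM at 3 µg/kg, 215, 244 and 228 CPM at 10 µg/kg and 246, 151 and 197 CPM at 30 µg/kg. Every library of 3 and 10 µg/kg lay above every vehicle library, while 30 µg/kg replicate 2 fell inside the vehicle range. The log2 change against vehicle was 0.39 (SE 0.16, adjusted p = 0.391) at the lowest dose. At 10 and 30 µg/kg it came to 0.63 (SE 0.16, adjusted p = 0.101) and 0.42 (SE 0.16, adjusted p = 0.141). Hmgcs1 was also the most abundant member per length, at 42.6 ± 6.21 CPM per kb of its longest coding transcript (SD, n = 3) in vehicle, and the annotated gene Gm48342 lies on the opposite strand.

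Idi1 (ENSMUSG00000058258, chr13:8885501-8892451, plus strand) interconverts the isoprenoid building blocks isopentenyl and dimethylallyl diphosphate. It stood at 37.4, 45.5 and 49.8 CPM in vehicle, 56.7, 55.7 and 56.5 CPM at 3 µg/kg, 64.2, 53.5 and 57.8 CPM at 10 µg/kg and 57.6, 45.1 and 47.1 CPM at 30 µg/kg. Both lower doses cleared the vehicle range and the top dose did not. Its log2 change was 0.35 (SE 0.12), 0.40 (SE 0.12) and 0.18 (SE 0.12) at the 3 doses in rising order, with adjusted p of 0.316, 0.156 and 0.435.

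Fdps (ENSMUSG00000059743, chr3:89093588-89101959, minus strand) condenses those units to farnesyl diphosphate, from which sterols, dolichol and protein prenyl groups branch. Its levels were the lowest of the members, at 4.01, 5.88 and 7.2 CPM in vehicle, 8.15, 8.12 and 7.34 CPM at 3 µg/kg, 10.2, 9.79 and 11.3 CPM at 10 µg/kg and 12.2, 5.69 and 9.47 CPM at 30 µg/kg. The lower 2 doses did not overlap vehicle, and 30 µg/kg replicate 2 again lay within it. The log2 change of 0.87 (SE 0.25, adjusted p = 0.136) at 10 µg/kg was the largest among the members, a 1.83-fold difference. The changes at 3 and 30 µg/kg were 0.46 (SE 0.25, adjusted p = 0.508) and 0.69 (SE 0.25, adjusted p = 0.127). These values rest on 64 to 239 counts per library, and 2 annotated genes, Gm43738 and Gm22935, overlap Fdps on its own strand, so its level is uncertain.

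Fdft1 (ENSMUSG00000021273, chr14:63145150-63179578, minus strand) is squalene synthase, the step that commits farnesyl diphosphate to sterols. It measured 22.8, 26.7 and 21.6 CPM in vehicle, 30.6, 25.8 and 28.9 CPM at 3 µg/kg, 28, 35.2 and 38.8 CPM at 10 µg/kg and 43.1, 26.7 and 33.5 CPM at 30 µg/kg. Only the libraries of 10 µg/kg all lay above vehicle. Its log2 change was 0.26 (SE 0.17) at 3 µg/kg, 0.52 (SE 0.17) at 10 µg/kg and 0.54 (SE 0.17) at 30 µg/kg. The adjusted p of 0.0797 at 30 µg/kg was the smallest of any member against vehicle. Ctsb lies opposite to part of the gene, and the strand setting of the counting is not given in the sources used here. Idi1, Lss and Cyp51 likewise have an annotated gene on the opposite strand, namely Gm48574, 4930483K19Rik and Akap9 in that order.

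Sqle (ENSMUSG00000022351, chr15:59315077-59331192, plus strand), the squalene epoxidase that adds the first oxygen of the sterol, varied most at the top dose. Its values were 37, 53.8 and 46.3 CPM in vehicle, 46.5, 50.4 and 58.7 CPM at 3 µg/kg, 54.2, 58.9 and 61.1 CPM at 10 µg/kg and 85.8, 41.3 and 60.9 CPM at 30 µg/kg. The libraries of 10 µg/kg lay just above vehicle, and those of 30 µg/kg ran from below the vehicle median to well above its highest library. The log2 change was 0.18 (SE 0.21), 0.34 (SE 0.21) and 0.46 (SE 0.21) in order of dose, with adjusted p of 0.788, 0.440 and 0.231.

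Lss (ENSMUSG00000033105, chr10:76531588-76557138, plus strand), lanosterol synthase, closes the rings. It was at 19.5, 26.2 and 23.2 CPM in vehicle, 24.8, 26.9 and 29.3 CPM at 3 µg/kg, 28.7, 32.1 and 35.3 CPM at 10 µg/kg and 34.9, 22.3 and 22 CPM at 30 µg/kg. The 10 µg/kg libraries were above vehicle, and 2 of the 3 at 30 µg/kg were within it. Log2 changes were 0.23 (SE 0.17, adjusted p = 0.640), 0.48 (SE 0.17, adjusted p = 0.212) and 0.21 (SE 0.17, adjusted p = 0.529). Without 30 µg/kg replicate 1 the last of these was -0.05.

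Cyp51 (ENSMUSG00000001467, chr5:4081145-4104746, minus strand) is the cytochrome P450 that demethylates lanosterol. It read 38.4, 53.3 and 59.6 CPM in vehicle, 55.7, 63.6 and 61 CPM at 3 µg/kg, 66.8, 75.3 and 73.3 CPM at 10 µg/kg and 84.9, 53 and 63.5 CPM at 30 µg/kg. The 10 µg/kg libraries were clear of vehicle, and the other doses overlapped it. Log2 changes were 0.25 (SE 0.17, adjusted p = 0.609), 0.51 (SE 0.17, adjusted p = 0.194) and 0.41 (SE 0.17, adjusted p = 0.188).

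Dhcr7 (ENSMUSG00000058454, chr7:143823145-143848410, plus strand), which reduces 7-dehydrocholesterol to cholesterol in the last step, differed least between doses. It held 36, 44.7 and 41.1 CPM in vehicle, 50.3, 39.2 and 36.4 CPM at 3 µg/kg, 42.6, 38.6 and 44 CPM at 10 µg/kg and 44.7, 38.9 and 40.5 CPM at 30 µg/kg. The group means lay between 40.6 and 42.0 CPM, and the groups overlapped. Its log2 change was 0.04 (SE 0.13), 0.04 (SE 0.13) and 0.03 (SE 0.13), and its estimate turned negative, to -0.11 at the lowest, when single libraries were left out.

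Counted over the 8 members, every library of 3 µg/kg lay above every vehicle library for 3 (Hmgcs1, Idi1 and Fdps), against 8.58% of all genes. At 10 µg/kg this held for 7, all but Dhcr7, against 11.9%. At 30 µg/kg it held for 0, against 14.2%. The order of the group means was vehicle lowest for all 8 members and 10 µg/kg highest for Hmgcs1, Idi1, Fdps, Lss and Cyp51. Fdft1 and Sqle were highest at 30 µg/kg and Dhcr7 at 3 µg/kg. Of the 24 steps between neighbours in these orders, only vehicle to 3 µg/kg for Hmgcs1 and for Fdps had ranges that did not overlap. Over the dose rank, 0 of 8 members were called, where 3.29% of all genes tested were, and 5 of 8 were higher at an unadjusted p under 0.05, against 10.7%. The estimate over the dose rank was above 0 for 8 of 8, against 47.5%, but that of Dhcr7 was -0.03 without vehicle replicate 1. Fdft1 came nearest, with a log2 change of 0.57 over the whole range (SE 0.16, adjusted p = 0.0587).

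The members tended to rise and fall together between libraries, also within a dose, though some pairs did so weakly. The mean z score of the 8 genes, each scaled over the 12 libraries, was lowest in vehicle replicate 1 (-1.82), which held the lowest of 12 values for 7 of 8 members. It was highest in 30 µg/kg replicate 1 (1.40), the highest of 12 for 5 members. Within the same dose, 30 µg/kg replicate 2 was at -0.87 and replicate 3 at 0.04, so the top dose spanned most of the range of the series. The 10 µg/kg libraries, at 0.48, 0.59 and 0.97, were all above the 3 vehicle libraries, at -1.82, -0.35 and -0.56. Pearson's r over the 12 libraries averaged 0.69 over the 28 pairs of members and ran from 0.29 to 0.95, highest for Fdps with Cyp51. Dhcr7 averaged 0.37 with the other 7. With the group means removed, r ran from 0.27 for Idi1 with Fdft1 to 0.90 for Fdps with Cyp51. These points share library and depth, and no p is given.

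**Figure D2:**
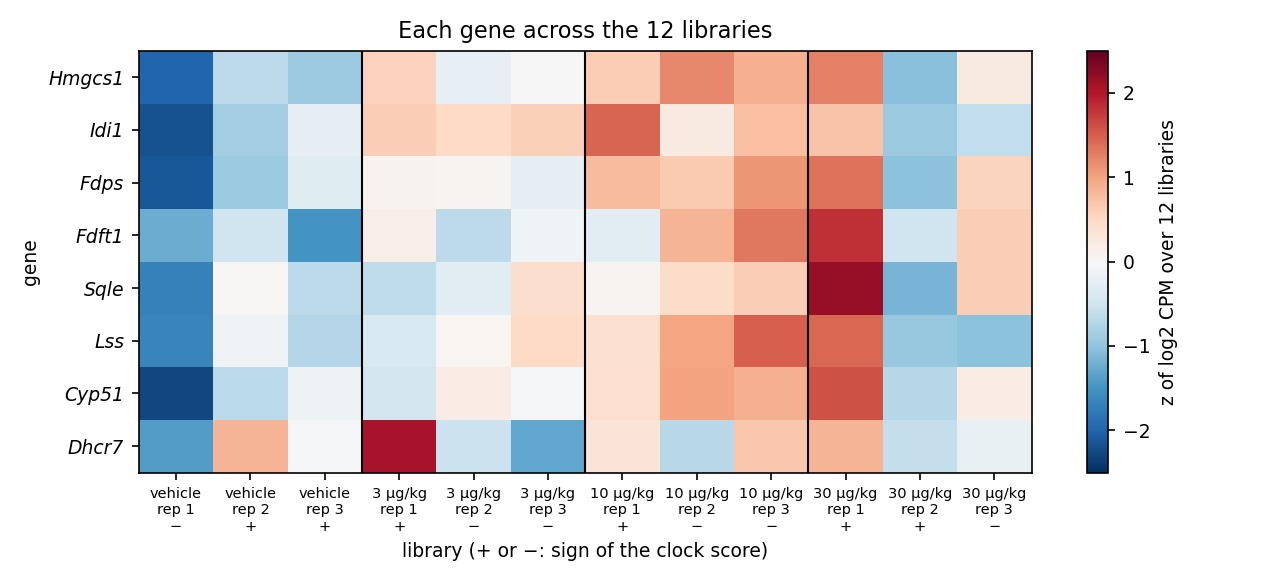
Heat map of the 8 genes (rows) in the 12 libraries (columns, grouped by dose, with the sign of the clock score below). Colour is the z score of log2 CPM over the 12 libraries, red above and blue below each gene's mean. Vehicle replicate 1 is blue for every gene and 30 µg/kg replicate 1 red for every gene, while 30 µg/kg replicate 2 is blue for every gene.

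The counts at the top dose depended on 1 library. Without 30 µg/kg replicate 2, 3 members were called at 30 µg/kg by edgeR, against 2.87% of all genes tested in that fit. They were Hmgcs1 (log2 change 0.59, adjusted p = 0.0381), Fdps (0.93, adjusted p = 0.0343) and Fdft1 (0.70, adjusted p = 0.0325). Over the dose rank 4 were then called, these and Sqle (0.66, adjusted p = 0.0412), against 2.10%. Without both that library and vehicle replicate 1, chosen after seeing their values, 2 were called over the dose rank (Fdps and Fdft1, against 2.10%) and 0 at 30 µg/kg (against 2.82%). That library was the shallowest, at 11695887 counts, and the summed level of 6 smooth muscle markers in it was 113 CPM. Vehicle replicate 1 had 179 CPM of the same markers, the highest of the 12 libraries, against 13.7 to 82.1 CPM in the other 10. Over the 12 libraries this sum had r = -0.62 with the members' mean z. The summed level of 8 crypt and proliferation markers had r = 0.51 with it and was 301 to 325 CPM in vehicle, 230 to 543 at 3 µg/kg, 404 to 558 at 10 µg/kg and 395 to 544 at 30 µg/kg. At 30 µg/kg, 5 of these 8 markers lay above every vehicle library (14.2% of all genes did) and 1, Lgr5, below (12.5% did). Paneth cell markers had r = 0.26 with the members' mean z and summed to 545 to 852 CPM in vehicle. Their sum was 559 to 1400 CPM at 3 µg/kg, 854 to 1180 CPM at 10 µg/kg and 1800 to 2580 CPM at 30 µg/kg. For the 10 enterocyte markers r was -0.03. The part of these in the members' values was not tested.

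The libraries also differ in circadian phase. A clock score was formed as the mean z of 10 genes listed on the Dbp side of the molecular clock minus that of 5 on the Arntl side. The sides oscillate in opposite phase. The score was positive in 6 libraries (1.18 to 2.05) and negative in 6 (-2.28 to -0.58), and Dbp ran from 0.98 to 121 CPM. Not every gene followed its side at each dose. Bhlhe41, of the Dbp side, was at 0.528 CPM in the positive library of 3 µg/kg and 0.876 and 0.763 CPM in the negative ones. By edgeR it was also called lower at 30 µg/kg (log2 change -2.77, adjusted p = 0.0441), where 3.97% of all genes were called. Its level there was 0.357, 0.0889 and 0.11 CPM, where 3 counts equal 0.151, 0.257 and 0.167 CPM in replicates 1 to 3. These values of Bhlhe41 rest on few counts and are uncertain. The score thus holds a gene that was called with dose at a low level. Vehicle and 30 µg/kg have 2 positive libraries and 1 negative, and 3 and 10 µg/kg have 1 positive and 2 negative. The study reports that tissues were harvested early in the light phase, but the labels give no time of death for single libraries. The clock states were read from the data, so levels between them are descriptions without a test.

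The members covered a wide range of levels in both clock states. Their mean z ran from -0.87 to 1.40 in positive and from -1.82 to 0.97 in negative libraries, and its r with the score was 0.05 over 12 libraries. The median positive minus negative difference of the members was 0.36 on the log2 scale in vehicle and 0.05, -0.14 and 0.03 at 3, 10 and 30 µg/kg. In vehicle all 8 differences were above 0, but the negative state is there 1 library, vehicle replicate 1. No member was higher in the positive state without overlap at all 4 doses (0 of 8, against 7.63% of all genes) and none lower (0 of 8, against 6.78%). Averaged over doses the difference ran from -0.04 for Fdft1 to 0.19 for Dhcr7. Of the rest of the pathway, Msmo1, a sterol methyl oxidase singled out after its values were seen, did separate at every dose. It was not alone in this among the 13 other enzymes, and 7.63% of all genes separated in the same direction. Msmo1 was between 102 and 153 CPM in positive and between 48.3 and 76.7 CPM in negative libraries.

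**Figure D3:**
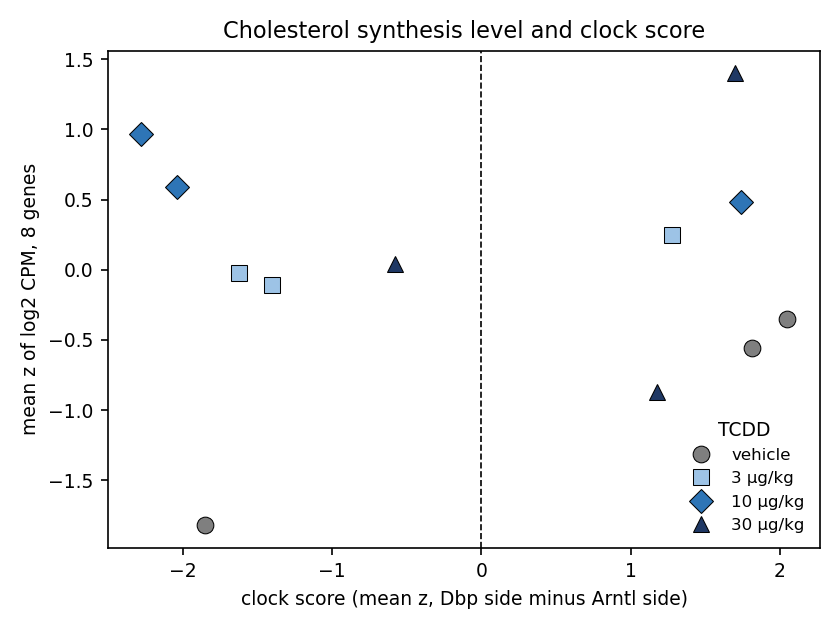
Mean z score of the 8 genes (vertical axis) against the clock score (horizontal axis, mean z of the Dbp side minus the Arntl side) for the 12 libraries, marked by TCDD dose. The dashed line at 0 divides the states. Both states cover a wide range of member levels, with vehicle replicate 1 lowest at -1.82 and 30 µg/kg replicate 1 highest at 1.40.

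Dose was therefore also compared within each state. Among positive libraries, the median log2 difference of the members from vehicle was 0.24 at 3 µg/kg (1 library against 2), 0.23 at 10 µg/kg (1 against 2) and 0.25 at 30 µg/kg (2 against 2). Among negative libraries it was 0.57, 0.74 and 0.62, all against vehicle replicate 1 alone. For Fdps these differences were 0.32, 0.64 and 0.35 in the positive state and 0.93, 1.37 and 1.22 in the negative state. Medians over all genes were between -0.01 and 0.01 in both states. With the clock score as a covariate in the edgeR fit, Hmgcs1 was called at 10 µg/kg (log2 change 0.71, SE 0.16, adjusted p = 0.0443), against 0.796% of all genes. No other member was called in that fit at that dose, and 0 of 8 were called at 3 µg/kg (against 0.278%), 30 µg/kg (5.53%) or over the dose rank (4.51%).

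Of the 13 other enzymes of the pathway, 1 was called at 30 µg/kg, Acat2, the cytosolic thiolase that makes acetoacetyl-CoA for Hmgcs1. It was at 6.37, 5.79 and 6.15 CPM in vehicle, 8.53, 9.23 and 8.34 CPM at 3 µg/kg, 8.43, 11.1 and 9.62 CPM at 10 µg/kg and 11.7, 8.89 and 10.1 CPM at 30 µg/kg. Every library given TCDD lay above every vehicle library, as also for Pmvk and Ebp, singled out after their values were seen. By dose, 4, 7 and 5 of the 13 lay above vehicle in every library at 3, 10 and 30 µg/kg. The shares of all genes were 8.58%, 11.9% and 14.2%. Sc5d lay below every vehicle library at 10 µg/kg. The log2 change of Acat2 by edgeR was 0.75 (SE 0.14, adjusted p = 0.00848) at 30 µg/kg and 0.71 (adjusted p = 0.0197) over the dose rank. For Acat2 over dose rank, the call was lost without vehicle replicate 2 (adjusted p = 0.05745), vehicle replicate 3 (0.05154) or 30 µg/kg replicate 1 (0.0668). No other enzyme was called at any dose or over the dose rank, so that 1 of 13 stands against 3.97% of all genes called at 30 µg/kg and 3.29% over the dose rank. At an unadjusted p under 0.05, 7 of 13 were higher at 30 µg/kg, against 11.6% of all genes, and 0 were lower. The median log2 change of the 13 was 0.12, 0.31 and 0.47 in order of dose. Mvd, the decarboxylase before Idi1, changed by 0.58 (adjusted p = 0.147) and Lbr, a sterol reductase of the inner nuclear membrane, by 0.52 (adjusted p = 0.129) at 30 µg/kg. Ebp (0.47, adjusted p = 0.00968) and Nsdhl (0.50, adjusted p = 0.0362), singled out after their values were seen, passed the adjusted p at 30 µg/kg with less than a 1.5-fold difference.

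**Figure D4:**
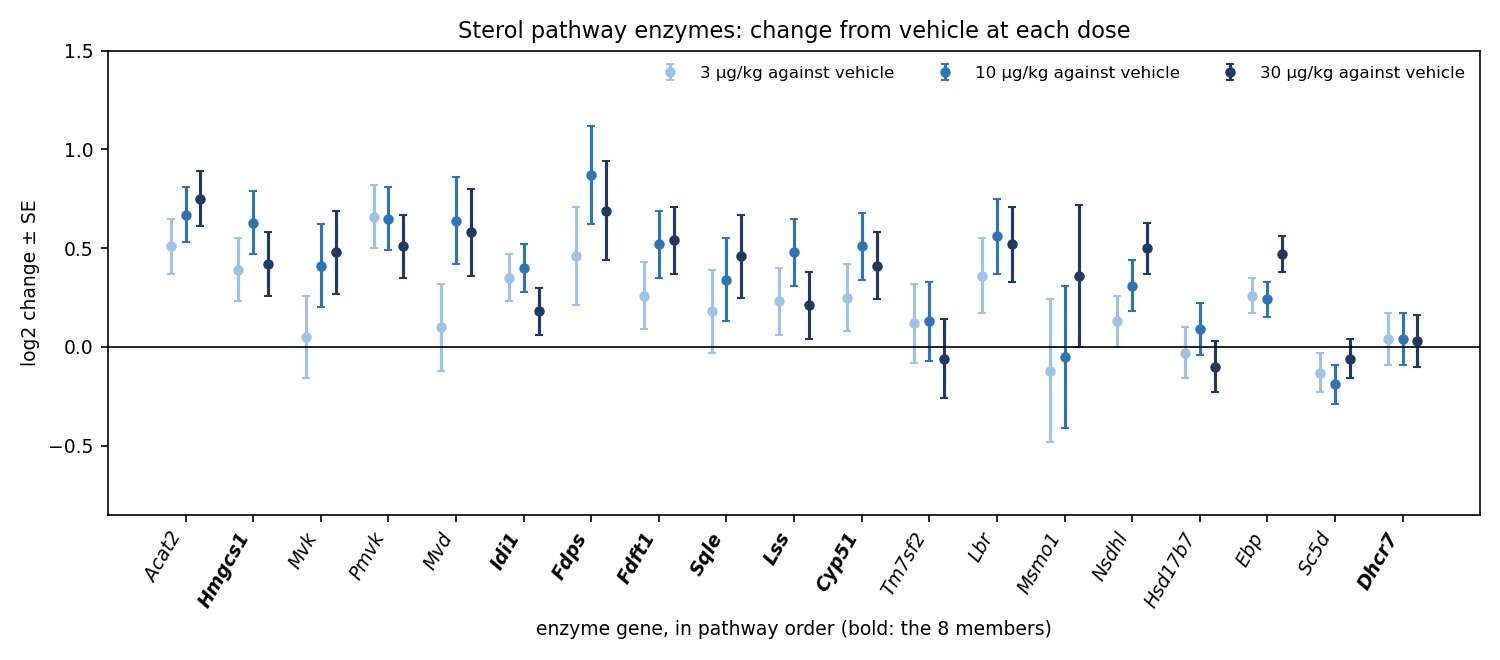
Log2 change from vehicle ± SE (edgeR, vertical axis) at 3, 10 and 30 µg/kg TCDD for enzyme genes in pathway order, with the 8 members in bold. Estimates are above 0 for every member and sit highest for Fdps at 10 µg/kg (0.87), while the estimates of Sc5d are below 0 at each dose.

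Genes that control SREBP or take up sterols (10 genes) had no call at any dose or over the dose rank. At 30 µg/kg, Insig1, an ER anchor of SREBP, differed by 0.36 (adjusted p = 0.487) and Stard4, a sterol carrier, by -0.45 (adjusted p = 0.0948). Srebf2, which encodes SREBP2, had log2 changes of -0.08, -0.03 and 0.24 in order of dose.

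Among 9 genes of sterol export, absorption and esterification, Abca1, the cholesterol efflux pump, fell over the dose rank by 1.07 on the log2 scale (SE 0.26, adjusted p = 0.0305). No other of the 9 was called, and over the dose rank 3.29% of all genes were. Abca1 was at 201, 254 and 225 CPM in vehicle and 86, 157 and 100 CPM at 30 µg/kg, without overlap (as for 12.5% of all genes, below every vehicle library), a log2 change of -0.99 there (adjusted p = 0.0618). Leaving out any of vehicle replicates 2 and 3 and 30 µg/kg replicates 1 and 3 raised its adjusted p over the dose rank above 0.05, to 0.104 at the highest. Abcg8, which with Abcg5 returns sterols to the lumen, changed by -0.53 (adjusted p = 0.0729) and Scarb1, an HDL receptor, by 0.41 (adjusted p = 0.396) at 30 µg/kg. Of 11 fatty acid synthesis genes none was called at any dose or over the dose rank. The largest changes at 30 µg/kg were those of the desaturases Scd1 (-0.95, adjusted p = 0.532) and Fads2 (0.66, adjusted p = 0.10) and of malic enzyme Me1 (-0.56, adjusted p = 0.325).

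The genes most like the members were found by Pearson's r of log2 CPM with the members' mean z over the 12 libraries, among 11188 genes with a mean count of at least 50. The first 10 were Gmnn (r = 0.891), Uba1 (0.876), Pdk1 (0.875), Ap1s1 (0.872), Ndufb6 (0.868), Pik3r3 (0.867), Hnrnpk (0.866), Lpcat4 (0.855), Insig1 (0.853) and Cox5a (0.849). Insig1 is the SREBP anchor described above, and Mvk, mevalonate kinase, was at place 32 (r = 0.81). With the group means removed, r was 0.79 for Insig1 and 0.81 for Mvk. Sc5d, an enzyme of the last steps, had r = -0.24.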

How the data were processed

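RNA from scrapings of the proximal ileal epithelium was sequenced in 12 libraries, 3 per dose. The authors deposited raw read counts per Ensembl gene, 1 library per file, without normalisation. Per the submitters' processing notes, the tools were FastQC 0.11.3, Trimmomatic 0.33, TopHat2 2.1.0, SAMtools 1.2.0, HTSeq 0.6.1 and DESeq, with build GRCm38. The annotation release and strand setting are not given in the sources used here. Reads assigned to no gene (39.4% to 45.0% of uniquely aligned reads), to several genes or to several places were left out. Identifiers of 45143 of 46078 genes matched GENCODE M21 (GRCm38), and the unmatched genes held 0.749% of counts. Total gene counts were between 11695887 and 22180274 per library.

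Counts were filtered with filterByExpr (15823 genes kept), scaled by TMM and fitted in edgeR 4.0.16 (R 4.3.3) with 4 group means. Each dose was compared with vehicle, and a slope over the dose rank (0 to 3) gave the change over the whole range. Benjamini-Hochberg adjustment ran over all genes tested. A gene was called at an adjusted p under 0.05 and a change of at least 1.5-fold. Log2 CPM used a prior count of 2. Clock states are the sign of the clock score. Alternatives were DESeq2 1.42.0, other scaling, filters and covariates, and single libraries left out. The 8 members and the other gene lists were chosen with earlier results of these data known. Beside the members, the called genes of each list, or else the 3 with the largest change at 30 µg/kg, and the 10 genes most like the members were named. Other genes are introduced as singled out after their values were seen, or stand for a role in the pathway. Some genes counted in these lists are not reported here by name.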

Additional observations from a re-analysis of the deposited data

How the results depend on the processing

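No paired analysis was possible because the labels carry no replicate numbers, and those used here only follow accession order. With the library index, which occurs once per dose, as a covariate, 0 members were called at any dose or over the dose rank. The count of members called stayed at 0 at 3 µg/kg in every alternative run. At 10 µg/kg it was 1 without a filter on low counts, 1 with the clock score and 1 with the clock state as a covariate (Hmgcs1 each time), and 2 by DESeq2. Over the dose rank it was 2 with both vehicle replicate 1 and 30 µg/kg replicate 2 left out. With single libraries left out, the count ran from 0 to 3 at 30 µg/kg and from 0 to 4 over the dose rank, and the members' median log2 change from 0.19 to 0.58 at 30 µg/kg, 0.19 being without 30 µg/kg replicate 1. The other pathway enzymes called were 1 at 3 µg/kg and 2 at 10 µg/kg by DESeq2, and 2 over the dose rank by DESeq2 and 2 with the clock state. With single libraries left out they ran from 0 to 1 at 10 µg/kg, 1 to 3 at 30 µg/kg and 0 to 3 over the dose rank.

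Over all genes the count called was 36 at 3 µg/kg, 6 to 84 in other settings and 19 to 162 with single libraries left out, 162 being without 3 µg/kg replicate 1. It was 97 at 10 µg/kg, 59 to 262 in other settings and 45 (without vehicle replicate 2) to 198 (without 3 µg/kg replicate 1) with single libraries left out. Over the dose rank it was 520, and 297 to 640 with single libraries left out, 297 being without 30 µg/kg replicate 3. Some estimates near 0 changed sign. At 3 µg/kg, Mvd was -0.01 with the clock state as covariate. At 10 µg/kg, Stard4 was 0.02 and Me1 -0.04 with the clock score. With single libraries left out, the log2 change at 3 µg/kg ran from -0.11 to 0.14 for Dhcr7, -0.07 to 0.24 for Mvd, -0.03 to 0.21 for Stard4, -0.53 to 0.06 for Abca1, -0.11 to 0.10 for Abcg8 and -0.28 to 0.09 for Me1. At 10 µg/kg it ran from -0.03 to 0.12 for Dhcr7, -0.64 to 0.32 for Scd1 and -0.29 to 0.35 for Me1. At 30 µg/kg it ran from -0.05 to 0.33 for Lss, -0.04 to 0.10 for Dhcr7 and -0.07 to 0.60 for Insig1, and over the dose rank from -0.03 to 0.09 for Dhcr7. The causes were not tested. Depth limits Fdps most, at 64 to 239 counts per library.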
